A study of Homo sapiens with 40 samples.

Results

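The genes described here were 10 genes of extracellular matrix turnover: the matrix metalloproteinases MMP1, MMP2, MMP7, MMP10, MMP14, MMP15 and MMP19, and the tissue inhibitors TIMP1, TIMP2 and TIMP3. They were chosen by name, as 10 of 56568 gene names in the expression tables, and the rule uses no measured value. Earlier results of these data were known when they were chosen, so calls are no independent evidence. The study exposed differentiated HepaRG cells, a human liver cell line sold as a culture of hepatocytes and primitive biliary cells, to the dioxin-like PCB 126, to glyphosate or to the glyphosate-based herbicide Roundup (Grand Travaux +). All cultures, the solvent controls included, were held in medium with fetal bovine serum and DMSO from day 8 to day 14, when the test substances were present. RNA sequencing gave 40 libraries in 8 groups of 5. Beside the controls there were 3 doses of PCB 126 (1 µM, 10 nM or 100 pM), 3 of glyphosate (0.1 g/L, 1 mg/L or 10 µg/L) and a single dose of Roundup (10 µg/L). Every comparison with control, for PCB 126 and for the herbicides, used the same 5 control libraries. Libraries are numbered 1 to 5 within a group in the order of deposit, and nothing in the labels states that they came from separate cultures, so the p-values measure the spread between these libraries only.

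Matrix metalloproteinases are zinc-dependent endopeptidases, made as inactive proforms, that cut collagens, laminins, proteoglycans and many non-matrix proteins. Some are secreted and others, the membrane-type enzymes, stay anchored at the cell surface. TIMPs bind the active site and block it, and TIMP2 has a second role, since together with MMP14 at the cell surface it brings pro-MMP2 to activation. In liver, stellate cells and other mesenchymal cells are well-known sources of MMP2 and TIMP1, hepatocytes also make TIMP1, and MMP7 is known from biliary epithelium.

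Levels are in FPKM (fragments per kilobase of transcript, scaled to the mapped fragments of each library), summed over the transcripts of a gene. The tables hold no read counts, so the depth behind each value is unknown. The libraries did not share one scale. In 9 libraries the study's alignment summary lists more than 30% of read pairs as aligned more than once, and in these the 75th percentile of the genes above 0 had a median of 2.93 FPKM, against 4.65 FPKM in the other 31, which include 2 that the summary does not name. The 9 were control 5, PCB 126 10 nM 3 and 5, PCB 126 1 µM 1 and 5, glyphosate 10 µg/L 5, glyphosate 0.1 g/L 2, and Roundup 4 and 5. The members moved with this scale. TIMP2 ranged from 17.9 to 99.2 FPKM in the 9 libraries and from 101 to 191 FPKM in the others, with no overlap, and the medians of TIMP1 were 195 and 346 FPKM. The median of MMP2 was 6.31 FPKM in the 9 and 10.7 FPKM in the others. MMP7 had medians of 17.2 and 37.1 FPKM, and MMP15 of 11.3 and 18.2 FPKM. The plot of TIMP1 and MMP2 against library scale shows the pattern for these 2 genes. Changes of MMP2, MMP10, TIMP1 and TIMP2 are given below with and without those libraries. The changes of the other members and the marker sums are not given without them.

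**Figure D1:**
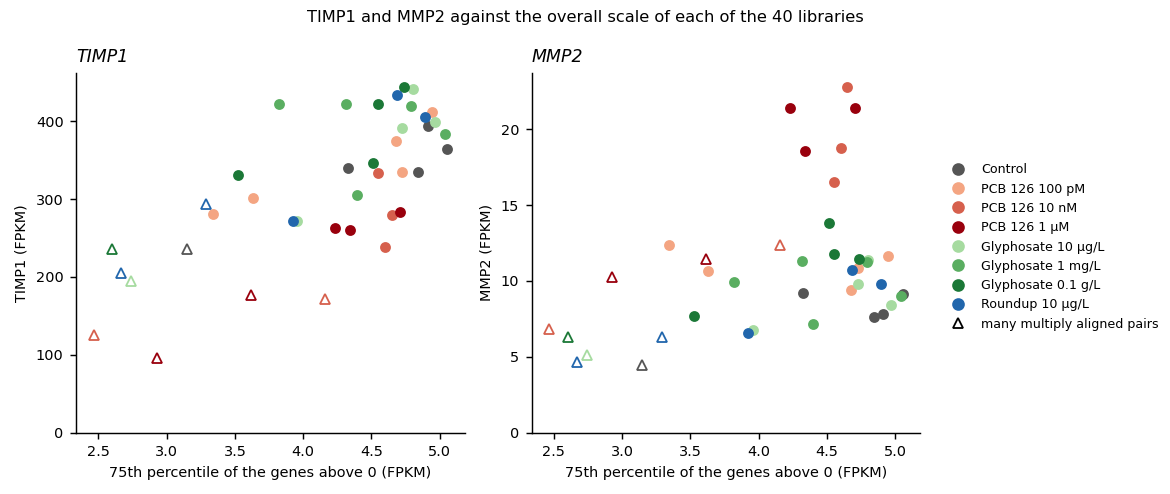
TIMP1 (left) and MMP2 (right) in FPKM (vertical axes) against the 75th percentile FPKM of each of the 40 libraries (horizontal axes), coloured by group, with triangles for the 9 libraries with many multiply aligned pairs. The triangles lie toward the low end of both axes for TIMP1 (95.2 to 294 FPKM), while the highest MMP2 values, up to 22.8 FPKM, are PCB 126 libraries.

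Markers of the labelled cell types were present. The summed level of 7 hepatocyte markers ran from 13454 to 19728 FPKM in control and was led by ALB. Of 7 biliary and progenitor markers, 3 had a control mean above 1 FPKM, led by KRT19 at 303 FPKM, while KRT7 was at 0.663 FPKM and EPCAM at 0.00802 FPKM. The sum of 5 endothelial markers ran from 0.918 to 5.25 FPKM in control. It was led by KDR at a mean of 2.27 FPKM, while CDH5 was listed at 0 in every control library. The sum of 7 markers of macrophages and other leukocytes ran from 2.33 to 7.48 FPKM, led by CD14 at 3.05 FPKM.

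Promoters were available for 6 of the 10 genes in the RefSeq table (GRCh38.p14), as the 250 bases upstream of the start site. MMP1, MMP2, MMP19 and TIMP2 were not among them. The following 3 are shown because they set apart 2 proteinase promoters of low GC content (33.6% and 34.4%) from a GC-rich inhibitor promoter (64.8%). Capitals mark every match to the AP-1 element TGANTCA, the TATA box TATAAA, the GC box GGGCGG and the AhR core GCGTG. All 4 motifs were searched on both strands. The AP-1 letters read the same way on both strands, and no match overlapped another.
MMP7 (chr11:102530748-102530997, minus strand): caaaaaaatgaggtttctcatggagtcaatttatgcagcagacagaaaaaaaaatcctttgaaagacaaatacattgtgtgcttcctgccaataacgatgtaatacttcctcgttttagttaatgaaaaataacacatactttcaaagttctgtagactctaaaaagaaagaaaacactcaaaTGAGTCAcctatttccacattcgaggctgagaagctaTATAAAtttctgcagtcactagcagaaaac
MMP10 (chr11:102780629-102780878, minus strand): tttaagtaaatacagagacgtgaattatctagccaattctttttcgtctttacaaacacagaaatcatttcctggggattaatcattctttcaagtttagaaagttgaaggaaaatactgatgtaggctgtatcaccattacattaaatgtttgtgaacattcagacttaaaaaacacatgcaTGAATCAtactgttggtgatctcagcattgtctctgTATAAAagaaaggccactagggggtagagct
TIMP1 (chrX:47582186-47582435, plus strand): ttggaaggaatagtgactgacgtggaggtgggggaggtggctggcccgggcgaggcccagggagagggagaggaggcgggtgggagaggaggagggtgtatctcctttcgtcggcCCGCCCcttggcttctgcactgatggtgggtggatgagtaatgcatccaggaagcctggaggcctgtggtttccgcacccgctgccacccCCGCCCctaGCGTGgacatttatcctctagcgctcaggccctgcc
The MMP7 and MMP10 windows each hold 1 AP-1 element starting 67 bases upstream of the start site, and a TATA box starting 30 bases upstream in MMP7 and 31 bases upstream in MMP10. The AP-1 letters occur in 6.57% and the TATA box in 10.7% of the 35116 promoters of this length. The TIMP1 window has no match to either set of letters. Only exact letters were searched, so near forms such as tgagtaa, which this window holds, were not marked. The window holds 2 GC boxes, at 135 and 45 bases upstream, and 1 AhR core at 36 bases upstream. The GC box occurs in 42.6% and the AhR core in 32.2% of all promoters, so these matches are common. Among the other 3 windows, MMP15 and TIMP3 each hold 5 GC boxes, MMP14 holds 1, and TIMP3 holds an AhR core at 213 bases upstream. These matches are descriptions of sequence and say nothing of binding in these cells.

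In control, the inhibitors TIMP1 and TIMP2 stood above every MMP among the 10 genes. TIMP1 was highest at 334 ± 59.97 FPKM (SD, n = 5), at the 99.8th percentile of the genes above 0 in control, and TIMP2 followed at 147 ± 38.6 FPKM. The membrane-type enzyme MMP14 came next at 51.8 ± 12.8 FPKM, with the matrilysin MMP7 at 45.2 ± 22.5 FPKM. The second membrane-type enzyme, MMP15, was at 17.1 ± 3.35 FPKM and the gelatinase MMP2 at 7.63 ± 1.92 FPKM. MMP19 reached 2.37 ± 0.587 FPKM and the stromelysin MMP10 reached 0.856 ± 0.433 FPKM. TIMP3, the inhibitor that binds to the matrix, was at 0.230 ± 0.215 FPKM, and the interstitial collagenase MMP1 was lowest at 0.0862 ± 0.103 FPKM and listed at 0 in 1 of the 5 libraries.

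Most neighbours in this order did not overlap in control. The exceptions were MMP14 and MMP7, where MMP14 was higher in 4 of 5 libraries, MMP10 and TIMP3, where MMP10 was higher in 4, and TIMP3 and MMP1, where TIMP3 was higher in 3. The inhibitors together made up 79.7 ± 2.27% of the summed FPKM of the 10 genes. TIMP1 (chrX:47582313-47586789) and TIMP3 (chr22:32801701-32863043) lie inside introns of SYN1 and SYN3 on the opposite strand. The library kit kept strand, and whether quantification used it is not given in the sources used here. In 9 of the 10 genes 1 transcript carried at least 95.47% of the level summed over named transcripts, and in MMP19 the main transcript carried 65.3%. This leaves out an unnamed transcript at the MMP14 locus, described below. Its mean over the 40 libraries was 15.7 FPKM, beside 37.6 FPKM for the main MMP14 transcript.

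**Figure D2:**
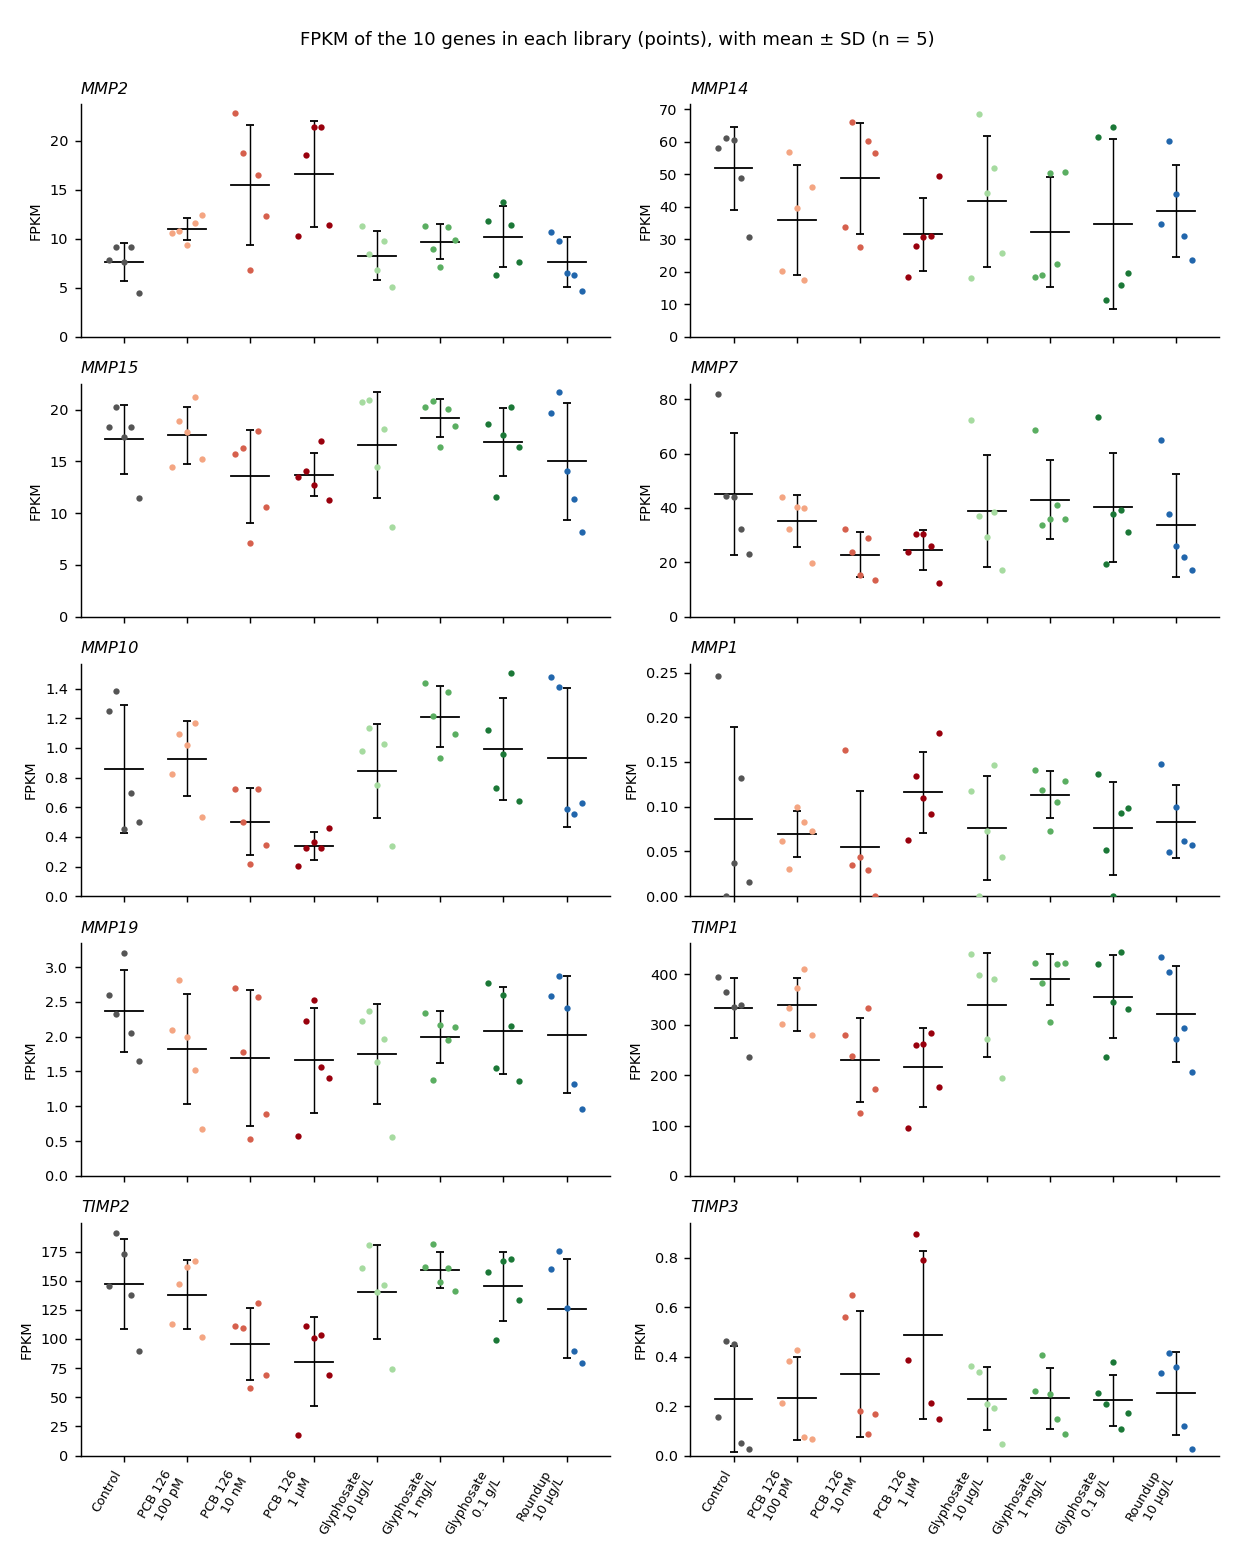
FPKM of each of the 10 genes (1 panel each) in every library (points) of the 8 groups, with bars for the mean and SD over 5 libraries. MMP2 rises from a control mean of 7.63 to 16.6 FPKM at PCB 126 1 µM, while TIMP2 is at 147 and 80.6 FPKM in the same groups and the herbicide groups overlap control for every gene.

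MMP2 was the one member that passed the adjusted threshold in any comparison as designed, and it rose with PCB 126. MMP2 (chr16:55389700-55506691, plus strand) encodes gelatinase A, which cuts type IV collagen and denatured collagen. Control libraries 1 to 5 held 7.79, 9.14, 7.59, 9.18 and 4.46 FPKM. At 100 pM the libraries held 10.6, 10.8, 9.41, 11.6 and 12.4 FPKM. Every 100 pM library was above every control library, by a narrow margin. At 10 nM the libraries held 22.8, 18.8, 6.85, 16.5 and 12.3 FPKM. The 10 nM libraries were the most spread, and library 3, with many multiply aligned pairs, fell inside the control range. At 1 µM the libraries held 10.3, 18.5, 21.4, 21.4 and 11.4 FPKM. Again no 1 µM library overlapped control, and the lower pair, libraries 1 and 5, were those with many multiply aligned pairs.

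Group means of MMP2 were 7.63 ± 1.92, 10.98 ± 1.12, 15.5 ± 6.11 and 16.6 ± 5.38 FPKM (SD, n = 5) from control to 1 µM. The trend over control and the 3 doses, taken as equal steps, was 0.34 per step on the log2(FPKM + 1) scale (SE 0.087, 95% interval 0.16 to 0.52), with an adjusted p of 0.0254 (limma, Benjamini-Hochberg over 9755 genes). Of the 6 members that passed the filter on variance, 1 was called in this trend, beside 3.78% of all genes and 0.923% called higher. The pairwise change at 1 µM was 1.00 (SE 0.29, 95% interval 0.41 to 1.59, adjusted p = 0.0685), and at 10 nM it was 0.87 (SE 0.29, adjusted p = 0.477), and neither passed. At 100 pM the change was 0.50 (SE 0.29, adjusted p = 1, with 0.0% of all genes called). The F-test over the 4 groups gave MMP2 an adjusted p of 0.213, and 0 of the 6 members were called in it, beside 1.39% of all genes and 4 members had an unadjusted p below 0.05, beside 9.56%.

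In 2-sided exact permutation tests of single values, MMP2 reached p = 0.00794 at 100 pM and at 1 µM, the smallest p that 5 against 5 libraries allow, and p = 0.0397 at 10 nM (70 such tests over members and exposed groups, p unadjusted). Groups without overlap and higher than control were seen for 0.177% of all detected genes at 100 pM and for 0.428% at 1 µM. Detected genes are those above 0 in at least 1 library of the table, 43478 for PCB 126. Only 9755 of them passed the variance filter, as MMP2 did, and the share among those is not given here.

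The MMP2 result moved with the treatment of the libraries. Without the libraries of many multiply aligned pairs the MMP2 change was 1.19 at 1 µM (adjusted p = 0.000134) and 1.10 at 10 nM (adjusted p = 0.0013), and the trend was 0.44 per step (adjusted p = 5.61e-05). Leaving out 1 library ended the trend call in 4 cases, with adjusted p of 0.0533 without control 1, 0.0509 without control 3, 0.0588 without 1 µM 3 and 0.0571 without 1 µM 4, while the slope stayed between 0.29 and 0.38.

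Markers of stellate cells and fibroblasts, a known source of MMP2, differed between the same groups. Their summed level, over 8 genes, ran from 34.4 to 80.7 FPKM in control, 77.3 to 85.8 FPKM at 100 pM, 50.0 to 157 FPKM at 10 nM and 50.6 to 194 FPKM at 1 µM. The sum was mostly LUM, a matrix proteoglycan, with means of 50.2 FPKM in control and 115 FPKM at 1 µM (log2 change 1.03, adjusted p = 0.180, limma). DCN, another small proteoglycan, was called higher in the trend (0.33 per step, adjusted p = 0.0478). PDGFRB, a receptor of mesenchymal cells, was called lower in the trend (-0.27 per step, adjusted p = 0.0404), and ACTA2 was at 2.37 FPKM in control and 0.553 FPKM at 1 µM. PDGFRA stayed below 0.32 FPKM in every library. In a bulk culture a change in the number of cells of one type and a change in RNA per cell cannot be told apart. Their part in the MMP2 result was not tested.

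MMP2 was also set against other members within each library, as a description. The ratio of MMP2 to TIMP2 had means of 0.0524 in control (0.0438 to 0.0668), 0.0835 at 100 pM (0.0580 to 0.122), 0.160 at 10 nM (0.118 to 0.204) and 0.265 at 1 µM (0.165 to 0.575). The 10 nM and 1 µM ranges lay wholly above control, and the highest ratio, in 1 µM library 1, was in the library with the lowest TIMP2. The ratio of MMP2 to TIMP1 went from 0.0227 in control (0.0190 to 0.0271) to 0.0672 at 10 nM (0.0495 to 0.0813) and 0.0802 at 1 µM (0.0649 to 0.108). The ratio of MMP2 to MMP15 was 0.442 in control (0.391 to 0.501), 0.640 at 100 pM (0.528 to 0.816), 1.13 at 10 nM (0.920 to 1.45) and 1.21 at 1 µM (0.761 to 1.68). MMP2 was below MMP15 in all 5 control libraries and above it in 3 of 5 at 10 nM and in 4 of 5 at 1 µM.

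A ratio within a library does not depend on library scale, but many genes shared this pattern where the denominator itself was low. Of 9754 genes, 35.3% had a ratio to TIMP2 and 20.6% a ratio to TIMP1 at 1 µM that lay wholly above control, and at 10 nM the shares were 26.7% and 19.2%. For the ratio to MMP15 the share was 3.82% at 1 µM, 5.82% at 10 nM and 0.338% at 100 pM.

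**Figure D3:**
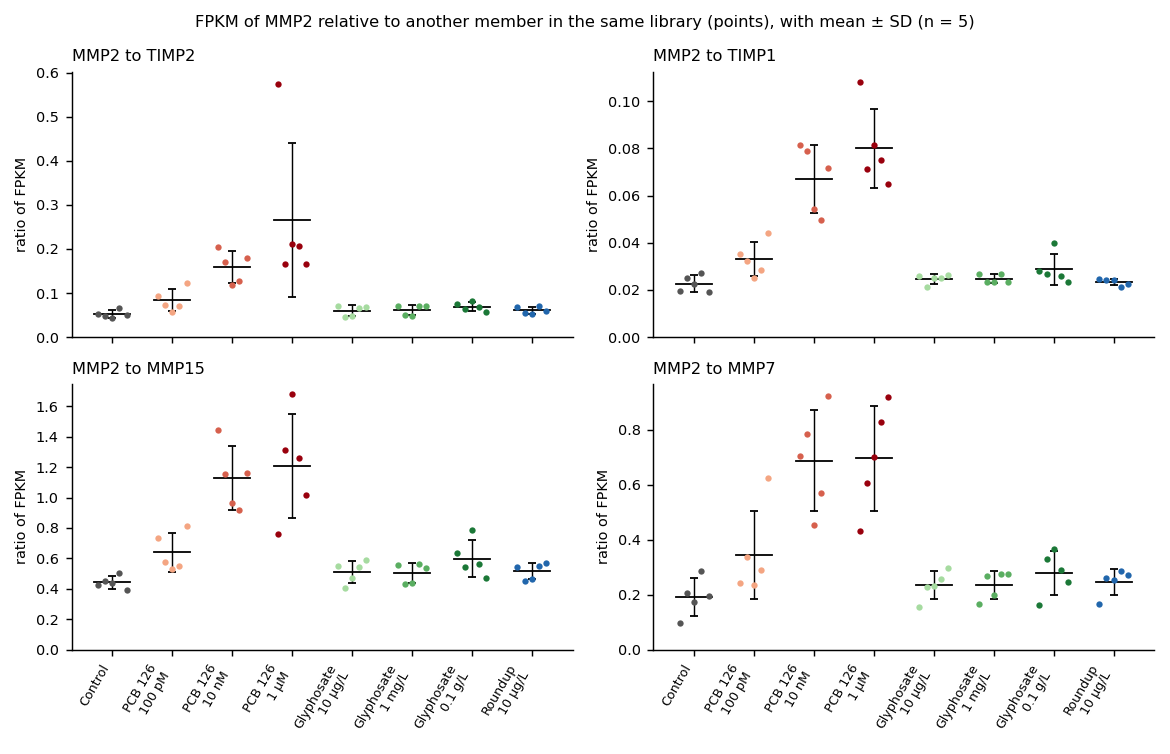
Ratio of MMP2 FPKM to TIMP2, TIMP1, MMP15 and MMP7 (1 panel each, no unit) in every library (points) of the 8 groups, with bars for the mean and SD over 5 libraries. The mean MMP2 to MMP15 ratio is 0.442 in control, 0.640 at PCB 126 100 pM and 1.21 at 1 µM. In the herbicide groups it is 0.505 to 0.599, and the MMP2 to TIMP2 means are 0.0602 to 0.0693, against 0.0524 in control.

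MMP14, the membrane-type enzyme that activates pro-MMP2, was at 58.01, 61.1, 60.5, 48.8 and 30.7 FPKM in control libraries 1 to 5. At 1 µM the libraries held 18.4, 27.9, 30.7, 31.0 and 49.3 FPKM. The groups overlapped, since 1 µM library 5 exceeded controls 4 and 5. The change was -0.73 (SE 0.33, adjusted p = 0.334, limma), and it was -0.61 at 100 pM and -0.12 at 10 nM (adjusted p = 1 and 0.897).

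This value depends on how the locus was assembled. StringTie placed a second transcript with no gene name on the same strand at chr14:22836560-22847468 (GRCh38), with 9 exons and 3810 bases, beside the named main transcript at chr14:22836557-22847761, with 10 exons and 3732 bases. The unnamed transcript was at 0 FPKM in 15 libraries and between 21.1 and 53.1 FPKM in 16. In those 16 libraries the named MMP14 sum was 11.5 to 39.5 FPKM, and in the other 24 it was 23.7 to 68.4 FPKM. In control the unnamed transcript reached at most 2.12 FPKM. At 1 µM it was at 46.2, 53.1, 52.6, 51.7 and 4.57 FPKM, above control in every library, and the exception to the high values, library 5, was the one with the highest named MMP14.

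With both summed, the MMP14 locus was at 52.6 ± 13.5 FPKM in control and 73.1 ± 13.2 FPKM at 1 µM (SD, n = 5), a change of 0.49 in the opposite direction (2-sided exact permutation p = 0.0556). The locus sums at the lower doses were 55.8 and 57.2 FPKM. No direction can be given for MMP14, because the sign depends on whether the unnamed transcript is counted. Of the 16 libraries, 4 were at 1 µM, 3 each at 100 pM, glyphosate 1 mg/L and glyphosate 0.1 g/L, and 1 each at 10 nM, glyphosate 10 µg/L and Roundup, with 0 in control.

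**Figure D4:**
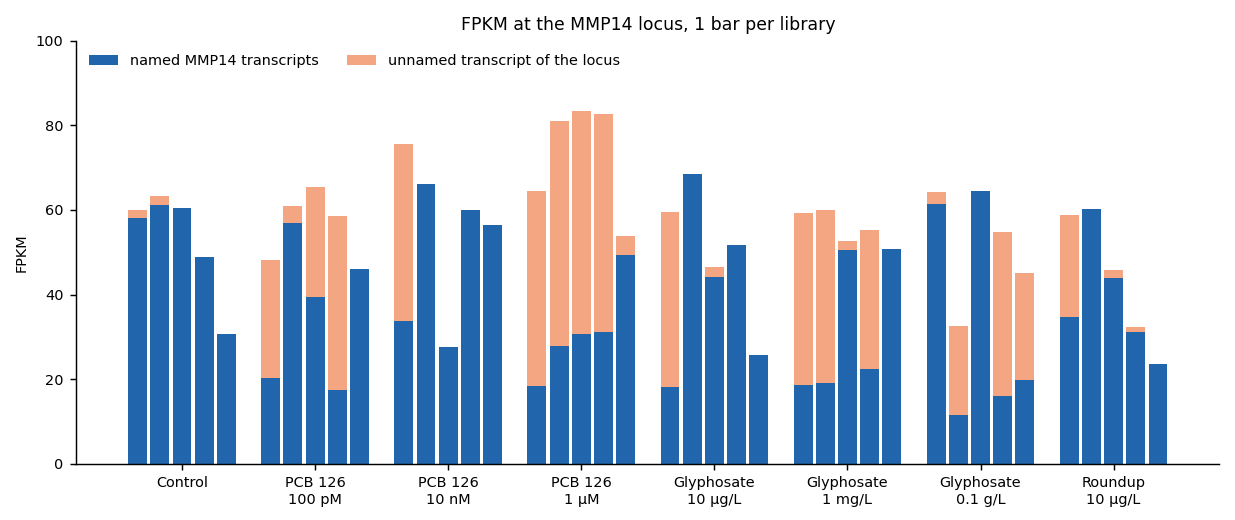
FPKM at the MMP14 locus (vertical axis), 1 stacked bar per library in the 8 groups, split into the transcripts named MMP14 and the unnamed assembled transcript. In control the unnamed part is at most 2.12 FPKM, and in 4 of 5 libraries at PCB 126 1 µM it is 46.2 to 53.1 FPKM and exceeds the named part.

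MMP15, the other membrane-type enzyme, held 18.3, 20.2, 17.3, 18.3 and 11.4 FPKM in control and 13.5, 14.1, 12.7, 16.9 and 11.3 FPKM at 1 µM. The ranges overlapped through the low control 5. The change of -0.29 (SE 0.25, 95% interval -0.79 to 0.22) did not pass, with an adjusted p of 0.591 (limma), and the mean at 100 pM was 17.5 FPKM.

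The secreted enzymes MMP7 and MMP10 had lower means at 10 nM and 1 µM than in control, without an adjusted call. MMP7, which cuts proteoglycans and fibronectin and sheds cell surface proteins, held 82.1, 44.4, 44.1, 32.2 and 22.99 FPKM in control. At 1 µM the libraries held 23.9, 30.5, 30.4, 25.8 and 12.4 FPKM. Controls 1 to 4 stood above all of these, and control 5 lay among them. The MMP7 difference from control was -0.91 at 10 nM (SE 0.33, adjusted p = 0.651) and -0.79 at 1 µM (SE 0.33, adjusted p = 0.276), and the trend was -0.30 per step (SE 0.10, adjusted p = 0.108, limma). Library 1 held the highest MMP7 value in 7 of the 8 groups, all but 1 µM.

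MMP10, which cuts proteoglycans and activates other proforms, was near 1 FPKM in control at 1.25, 1.38, 0.450, 0.698 and 0.499 FPKM. At 1 µM it was at 0.202, 0.326, 0.363, 0.327 and 0.463 FPKM. Library 5 at 1 µM and control 3 overlapped by a small margin. The change of -0.45 on the log2(FPKM + 1) scale had an exact permutation p of 0.0159 (2-sided, n = 5, unadjusted), and without the libraries of many multiply aligned pairs it was -0.51 with an exact p of 0.0571, from 3 against 4 libraries and 35 splits. MMP10 did not pass the variance filter, so it has no adjusted value. At 1 µM 4 of the 10 members (MMP2, MMP10, TIMP1 and TIMP2) had an exact p below 0.05, beside 6.1% of all detected genes. At 100 pM and at 10 nM 1 of the 10 did (MMP2), beside 1.88% and 2.93%. These shares are over all 43478 detected genes, of which only 9755 passed the variance filter. MMP2, TIMP1 and TIMP2 passed it. The share among genes that passed is not given here, so the members cannot be called more often below 0.05 than genes of like level.

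MMP19 was at 2.37 FPKM in control and 1.66 FPKM at 1 µM (exact permutation p = 0.143, n = 5). MMP1 was below 0.25 FPKM in every library of the series and gave no detectable difference at this level (exact permutation p = 0.524 at 1 µM, n = 5).

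TIMP2 and TIMP1, the abundant inhibitors, had lower means at the higher PCB 126 doses and did not pass the adjusted threshold. TIMP2 (chr17:78852977-78925387, minus strand) held 146, 191, 173, 138 and 89.7 FPKM in control. At 1 µM the libraries held 17.9, 111, 101, 104 and 69.4 FPKM. Controls 1 to 4 were above all of these and control 5 among them, while 1 µM library 1 was far below the rest. The change was -1.05 at 1 µM (SE 0.38, 95% interval -1.83 to -0.28, adjusted p = 0.181) and -0.64 at 10 nM (SE 0.38, adjusted p = 0.865), and the trend was -0.37 per step (SE 0.12, adjusted p = 0.0711, limma).

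TIMP1 held 395, 365, 335, 339 and 235 FPKM in control. At 1 µM it was at 95.2, 260, 263, 284 and 176 FPKM. The pattern was that of TIMP2, with control 5 inside the 1 µM range. The change was -0.71 at 1 µM (SE 0.30, 95% interval -1.32 to -0.10, adjusted p = 0.276), with a trend of -0.28 per step (SE 0.093, adjusted p = 0.0977, limma). The exact permutation p at 1 µM was 0.0317 for TIMP1 and for TIMP2 (2-sided, n = 5, unadjusted).

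Both differences were smaller without the libraries of many multiply aligned pairs. The change at 1 µM was then -0.60 for TIMP2 (SE 0.18, adjusted p = 0.072) and -0.41 for TIMP1 (SE 0.15, adjusted p = 0.146), and the TIMP2 trend was called at -0.20 per step (adjusted p = 0.0309). Without control 5 alone, MMP7, TIMP1 and TIMP2 were all called in the trend (adjusted p = 0.0327, 0.0338 and 0.0253), beside MMP2. Calls over all genes also went up there, from 369 to 1067 of 9755 genes, of which 976 were lower. Over all genes tested the median change at 1 µM was -0.26, and over the 6 members it was -0.72, or -0.50 with the MMP14 locus summed. In the trend the medians were -0.10 and -0.22 per step, or -0.20 with the locus summed. Among the 6 members, 5 had an unadjusted limma p below 0.05 at 1 µM, beside 13.6% of all genes, and 2 did at 10 nM, beside 4.85%. With unnamed transcripts summed into their loci the counts were 4 at 1 µM, without MMP14, beside 14.8% of all genes, and 3 at 10 nM, beside 5.35%.

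TIMP3 was at 0.487 ± 0.340 FPKM at 1 µM against 0.230 ± 0.215 FPKM in control (exact permutation p = 0.190, n = 5). Libraries 1 to 5 held 0.155, 0.465, 0.453, 0.0506 and 0.0268 FPKM in control. At 1 µM they held 0.386, 0.897, 0.792, 0.212 and 0.148 FPKM, each above the control library of the same number. The labels do not pair these libraries, and the test did not use the numbers. TIMP3 stayed below 1 FPKM in every library. The inhibitors made up 75.1 ± 7.25% of the summed FPKM of the 10 genes at 1 µM, against 79.7% in control. With the unnamed transcript counted as MMP14 the shares were 67.5 ± 9.80% and 79.6 ± 2.34%, and 1 µM library 1 was lowest at 50.1%.

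**Figure D5:**
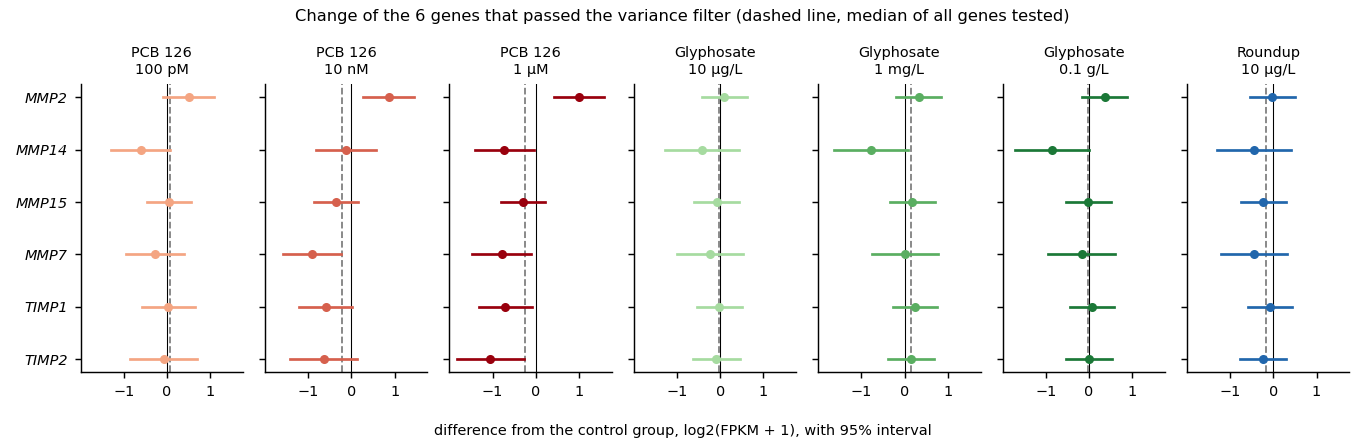
Change from control on the log2(FPKM + 1) scale (horizontal axis) for the 6 genes that passed the variance filter (rows), 1 panel per exposed group, with points for the estimate, bars for the 95% interval and a dashed line at the median of all genes tested. At PCB 126 1 µM MMP2 is at 1.00 (0.41 to 1.59) and the other 5 lie below 0 (MMP14 by its named transcripts alone), down to -1.05 for TIMP2, against a median of -0.26.

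The herbicides gave no called member. In glyphosate and Roundup 0 of 6 members passed the adjusted test in any comparison (limma over 9533 genes), and 0.0% of all genes did. At an unadjusted p below 0.05 there was 1 member at 0.1 g/L and 1 in the glyphosate trend, MMP14 in both, beside 0.881% and 1.05% of all genes. In the other herbicide comparisons there were 0 such members, beside 0.997% of all genes at 10 µg/L, 1.31% at 1 mg/L, 1.73% for Roundup, 1.27% for Roundup against glyphosate and 1.36% in the F-test. In exact permutation tests 0 of the 10 members reached p below 0.05 in any herbicide group, beside 1.53%, 2.1%, 1.68% and 1.44% of detected genes at 10 µg/L, 1 mg/L, 0.1 g/L and in Roundup. Only 9533 of these 44434 detected genes passed the variance filter, and the shares among those are not given here.

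MMP2 held 11.3, 8.41, 6.78, 9.82 and 5.09 FPKM at glyphosate 10 µg/L and 11.8, 6.31, 13.8, 11.4 and 7.67 FPKM at 0.1 g/L. Both ranges overlapped control. The change at 0.1 g/L was 0.36 (95% interval -0.16 to 0.88), and the trend was 0.13 per step (95% interval -0.03 to 0.29, adjusted p = 1, limma). MMP14 at 0.1 g/L held 61.4, 11.5, 64.6, 16.1 and 19.8 FPKM, split into a high pair and a low trio. Its change of -0.86 (SE 0.42, adjusted p = 1) became -0.01 when the unnamed transcript was added. The difference at 1 mg/L was 0.24 for TIMP1 (95% interval -0.27 to 0.75) and 0.15 for TIMP2 (95% interval -0.39 to 0.68).

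Roundup and glyphosate were both given at 10 µg/L, so the formulated product and its active ingredient can be set side by side. In 6 comparisons, 1 per tested member, limma gave adjusted p values (over all 9533 genes) of 0.974 to 0.989. MMP2 was at 7.59 ± 2.56 FPKM with Roundup and 8.29 ± 2.46 FPKM with glyphosate, a difference of -0.12 (95% interval -0.64 to 0.40). TIMP1 differed by -0.07 (95% interval -0.58 to 0.44) and MMP14 by -0.03 (95% interval -0.88 to 0.83). Each of these intervals reaches at least from -0.58 to 0.40.

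In the wider proteolysis network, PCB 126 at 1 µM gave 1 call among 3 tested other MMPs and 1 among 13 regulators. The share called over all genes was 1.87%. Of 17 other MMPs and TIMP4, 12 stayed below 1 FPKM in every library and 3 passed the variance filter. MMP13, a collagenase, fell by 1.22 at 1 µM (SE 0.31, adjusted p = 0.0379, limma), from 2.65 to 0.532 FPKM, and it was the 1 gene of this list called there, beside 1.87% of all genes. MMP24 and MMP28 were the most abundant of the list, at 8.34 and 8.35 FPKM in control. Of 18 activators and regulators, 13 were tested and 1 was called at 1 µM: CAV1, a caveolar scaffold protein, which fell by 2.02 (adjusted p = 0.0043), from 170 to 46.8 FPKM. Of 17 ADAM and ADAMTS proteases 6 were tested and 0 passed, with 0 also at an unadjusted p below 0.05. At 1 µM such a p (limma) was seen for 7 of the 13 tested regulators and 1 of the 3 tested other MMPs. The share over all genes was 13.6%.

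Among 20 matrix substrates, 12 were tested and COL3A1, a fibrillar collagen chain, was called lower at 10 nM (-1.87, adjusted p = 0.0232, beside 0.205% of all genes) and at 1 µM (-3.07, adjusted p = 2.29e-05), from 12.5 FPKM in control to 0.576 FPKM. At 1 µM 4 of the 12 tested substrates had an unadjusted p below 0.05 (limma), beside 13.6% of all genes. The 12 AP-1 and ETS factors include the FOS and JUN proteins that bind AP-1 elements. Of these factors 10 were tested and 0 were called at 1 µM, with 1 at an unadjusted p below 0.05. The median change of the tested factors at 1 µM was 0.08, against -0.26 over all genes tested. Of 7 AhR targets 6 were tested, and 5 were called higher at 10 nM and at 1 µM. CYP1A1 rose by 6.61 at 1 µM (adjusted p = 7.44e-05) and TIPARP by 3.21. In the herbicide groups 0 genes of these lists passed, with 0.0% of all genes called.

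The genes most like MMP2 over the 40 libraries, by Pearson r of log2(FPKM + 1) among 9260 genes, were LUM (r = 0.94), UGCG (r = 0.92) and PDP1 (r = 0.91). The libraries share their scale and the PCB 126 groups, so these are descriptions. UGCG, which makes glucosylceramide, had means of 19.6 FPKM in control and 63.8 FPKM at 1 µM, and PDP1, a pyruvate dehydrogenase phosphatase, had 13.5 and 21.9 FPKM. The summed levels of hepatocyte and biliary markers were lower at 1 µM than in control. The hepatocyte marker sum was 5478 to 13580 FPKM at 1 µM, against 13454 to 19728 FPKM in control, and ALB was called lower in the trend (-0.38 per step, adjusted p = 0.0200, limma). This sum was mostly ALB, while the mean of HNF4A, a hepatocyte transcription factor, was 19.5 FPKM in control and higher, at 27.05 FPKM, at 1 µM. The biliary sum was 122 to 215 FPKM at 1 µM, against 224 to 452 FPKM in control. KRT19 was at 164 FPKM at 1 µM (trend -0.34 per step, adjusted p = 0.0582). Their part in the TIMP and MMP7 values was not tested.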

How the data were processed

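Total RNA from 40 samples was depleted of ribosomal RNA and sequenced. Per the labels and the study's methods, the authors used HISAT2 for alignment (GRCh38) and StringTie for assembly and quantification. They deposited FPKM per transcript and library in 2 tables that share the control columns. In 9 deposited columns, whose unit is therefore classed as a score, a few FPKM were below 0, and these entries (4 for PCB 126, 6 for the herbicides) were set to 0. Values were summed per gene name, and 35782 of 234960 transcripts carry no name. Genes with a variance of FPKM above 1 were tested on log2(FPKM + 1) with limma 3.58.1 in R 4.3.3 (9755 and 9533 genes), with all groups of a table in 1 fit, no covariates, Benjamini-Hochberg adjustment and a threshold of 0.05. The study compared transcripts with a linear model, and here gene sums were compared with limma. The pseudocount of 1 understates changes of low genes. Of the 10 members, 6 passed the filter in both tables, and MMP1, MMP10, MMP19 and TIMP3 did not. Single values were compared by 2-sided exact permutation tests over 252 splits (Python 3.11.15). The trend used dose steps of equal size, with Roundup as a separate term in the herbicide table. The scripts were tested on simulated data. All 10 members were described, list genes were named where they passed the threshold, and the genes like MMP2 were named by Pearson r with the member of smallest F-test p. Members and lists were chosen with earlier results of these data known, so calls are no independent evidence. The labels number no replicates, and the files give no depth, so no counting interval is given.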

Additional observations from a re-analysis of the deposited data

Results flagged for a closer look

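Dixon's test on log2(FPKM + 1) was run in 80 groups of 5 libraries (10 genes in 8 groups). A library stood apart in 7 of them, where chance gives about 4, or 1 in 20. Of the 7, 5 were in libraries with many multiply aligned pairs. TIMP2 was at 17.9 FPKM in PCB 126 1 µM library 1, against 69.4 to 111 FPKM in the others. MMP7 was at 12.4 FPKM in 1 µM library 5, against 23.9 to 30.5 FPKM. In control 5, MMP2 was at 4.46 FPKM against 7.59 to 9.18 FPKM, and MMP15 was at 11.4 FPKM against 17.3 to 20.2 FPKM. TIMP2 was at 73.9 FPKM in glyphosate 10 µg/L library 5, against 140 to 181 FPKM. The part of alignment in these values was not tested.

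MMP7 was high, at 68.6 FPKM, in glyphosate 1 mg/L library 1, against 33.7 to 41.04 FPKM in the others, and MMP1 was at 0.164 FPKM in PCB 126 10 nM library 1, against 0 to 0.0443 FPKM. Neither library had many multiply aligned pairs. MMP7 was also highest in library 1 in control (82.1 FPKM) and in the other herbicide groups (64.9 to 73.4 FPKM), so this was not particular to 1 mg/L.

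High values also appeared outside the named genes. The unnamed transcript at the MMP14 locus had a mean of 41.6 ± 20.9 FPKM at PCB 126 1 µM (SD, n = 5), against 0 to 2.12 FPKM in control (2-sided exact permutation p = 0.00794, unadjusted). It was picked after seeing the data, so this p is no independent evidence. Its means in the other exposed groups were 5.43 to 23.4 FPKM, the highest at glyphosate 1 mg/L, and it was above 10 FPKM in 16 libraries. Which of the transcripts the reads came from was not tested.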

How the results depend on the processing

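The direction of MMP2 (higher), TIMP1, TIMP2, MMP7 and MMP15 (lower) at PCB 126 10 nM and 1 µM and in the trend held under all alternatives run. MMP14 did not: with the unnamed transcript added (an alternative chosen after seeing the data) its change was 0.49 at 1 µM and its glyphosate trend was 0.0186 per step, in place of -0.73 and -0.29. Counts of called members moved more than signs. The trend, with 1 member called, gave 0 with no filter on low values (MMP2 adjusted p = 0.0611), 2 with a library-size term, with all 8 groups in 1 fit, without libraries of many multiply aligned pairs and with the locus sum, 3 with 75th-percentile scaling, and 4 with quantile normalization and with array weights. At 1 µM, with 0 called, it gave 1 with 75th-percentile scaling, all 8 groups, the 5 such libraries of the PCB 126 table removed and the locus sum, and 2 with quantile normalization, the library-size term and array weights. At 10 nM, with 0, it gave 1 under 75th-percentile scaling, quantile normalization, the library-size term, library removal and array weights. The F-test, with 0, gave 2 with 75th-percentile scaling, 1 with quantile normalization, the library-size term and library removal, and 3 with array weights. In the herbicide table array weights gave 5 in the F-test, 4 for Roundup against control and 5 for Roundup against glyphosate, in place of 0, where they called 5527, 3470 and 4448 of all genes. The 70 exact tests gave 15 below 0.05 with 75th-percentile scaling, in place of 6. The cause was not tested in any of these.

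Leaving out 1 library gave 0 to 4 members in the trend (4 without control 5), 0 to 1 at 1 µM (1 without 10 nM library 3 or 1 µM library 1), 0 to 1 in the F-test, 0 to 0 in the other comparisons, and 3 to 12 exact tests below 0.05. With the run of library numbers as a replicate block, 3 members were called in the trend (MMP2, MMP7 and TIMP2) and 1 at 1 µM (MMP2, adjusted p = 0.0440), and no other call changed. Correlations of same-numbered libraries ran from -0.06 to 0.17 in the PCB 126 table and from -0.17 to 0.36 in the herbicide table. In the herbicide table those numbered 1 had a median of 0.22, against -0.02 for different numbers. Not every pair was above 0.1, and no label pairs the libraries, so the numbers were not taken as pairs. Single members did vary by number, as MMP7 was highest in library 1 in 7 of the 8 groups. The main tests do not take this into account. Over all genes, calls at 1 µM went from 182 (63 higher, 119 lower) to 1085 (532 and 553) with quantile normalization, and the median change from -0.26 to -0.01, while TIMP2 went from -1.05 to -0.83. Under alternatives that kept every library or removed those of many multiply aligned pairs, trend calls went from 369 to between 242 and 1301, F-test calls from 136 to between 88 and 915, and 10 nM calls from 20 to between 14 and 239. With 1 library left out they ran from 223 (without 1 µM library 5) to 1067 (without control 5), from 101 to 208 (without control 5) and from 15 to 35 (without 10 nM library 3), and 1 µM calls from 118 (without control 4) to 366 (without control 5). The fit of only the groups compared was not run for F-tests and trends, which need all groups.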
